A study of Mus musculus with 8 samples.

Results

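The genes of the megalin-cubilin endocytosis system of the kidney were followed across injury and Keap1 genotype. They are 6 genes, Lrp2, Cubn, Amn, Folr1, Dab2 and Clcn5, chosen by name and read from the array probes whose RefSeq accession belongs to each. All 6 were measured, among 20581 genes tested. Messenger RNA from kidneys of male mice, 16 weeks old, was read on 8 Agilent arrays of 1 colour, with 4 groups of 2 arrays. The KD IRI kidneys carried a knockdown (KD) of Keap1 and were harvested on day 1 of ischemia-reperfusion injury (IRI): the vein and artery of the left kidney were closed with a clamp for 45 min and then released. The WT IRI kidneys were wild type (WT) and had the same injury. The KD Normal kidneys carried the knockdown and the WT Normal kidneys were wild type, and both were left kidneys that had not been clamped. The opposite kidney of the injured mice was not clamped. How the knockdown lowers Keap1, and in which cells, is not given in the sources used here. No label states whether the 2 arrays of a group come from different animals, and the p-values cover no more than the spread between arrays, which may be technical.

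Megalin, encoded by Lrp2, and cubilin, encoded by Cubn, are the large receptors with which the cells of the proximal tubule take proteins and protein-bound vitamins back from the filtered fluid. Cubilin has no membrane anchor of its own: amnionless, encoded by Amn, carries it to the cell surface, and megalin helps to take it in. Folr1 encodes a folate receptor of the same brush border. Dab2 encodes an adaptor that links the megalin tail to clathrin, and Clcn5 encodes ClC-5, a chloride-proton exchanger of endosomes that is mutated in Dent disease. Keap1 encodes the adaptor that marks the transcription factor NRF2 for breakdown.

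The promoters of the receptor genes Lrp2, Cubn and Amn, whose messages fell after injury in both genotypes, are printed 5′ to 3′ on the strand of each gene, from 250 bases before the start of transcription to 50 after it. They are RefSeq sequences of the assembly GRCm38.p6. The Lrp2 window lies at chr2:69585980-69586279 (minus strand), the Cubn window at chr2:13491827-13492126 (minus strand) and the Amn window at chr12:111270846-111271145 (plus strand). Capitals mark matches on either strand to the motifs named below.
Lrp2: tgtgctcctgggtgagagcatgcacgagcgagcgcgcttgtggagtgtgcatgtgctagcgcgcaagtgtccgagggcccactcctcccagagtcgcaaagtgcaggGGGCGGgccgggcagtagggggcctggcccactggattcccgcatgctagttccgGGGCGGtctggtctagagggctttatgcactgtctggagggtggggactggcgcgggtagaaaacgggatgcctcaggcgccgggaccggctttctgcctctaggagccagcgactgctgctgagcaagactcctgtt
Cubn: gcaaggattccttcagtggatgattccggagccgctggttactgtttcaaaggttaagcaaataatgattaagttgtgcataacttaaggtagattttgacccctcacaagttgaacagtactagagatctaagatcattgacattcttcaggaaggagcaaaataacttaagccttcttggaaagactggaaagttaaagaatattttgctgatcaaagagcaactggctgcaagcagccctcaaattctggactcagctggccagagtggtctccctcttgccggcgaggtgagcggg
Amn: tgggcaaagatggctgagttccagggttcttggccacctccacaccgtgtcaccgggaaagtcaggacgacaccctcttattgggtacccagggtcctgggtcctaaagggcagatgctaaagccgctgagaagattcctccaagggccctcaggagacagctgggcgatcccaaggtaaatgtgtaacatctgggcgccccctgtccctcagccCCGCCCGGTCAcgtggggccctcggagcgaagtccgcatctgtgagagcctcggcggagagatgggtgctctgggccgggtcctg
The motifs reported, each searched on both strands, were the GC box GGGCGG, the core of the antioxidant response element TGACNNNGC (the element NRF2 binds), the nuclear receptor hexamer AGGTCA and the TATA box TATAAA. The Lrp2 window held the GC box beginning at bases -143 and -88 relative to the start. The Amn window held, on the opposite strand, a GC box at -35 and an antioxidant response element core at -33, and these matches overlap. The Cubn window held none of these letters. Of the 6 genes 5 had windows in the table, 7 windows in all, with 2 each for Dab2 and Clcn5. Among them the GC box also lay in a Clcn5 window, and the antioxidant response element core and the TATA box in the other Clcn5 window. Among all 32851 promoters of the table the GC box was present in 35.7%, the antioxidant response element core in 12.4%, AGGTCA in 16.3% and TATAAA in 13.6%. A match describes the letters and does not show binding.

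Between 62.1% and 67.8% of the spots on an array were well above background. All 11 probes of the 6 genes were well above background on all 8 arrays, and none was saturated. Levels are given as the log2 of the signal over the 75th percentile of the array's signals, for the brightest probe of each gene. The level of a gene is compared between groups and not with that of another gene. Differences are log2 values from a limma fit of all 8 arrays, with the standard error (SE), and adjusted p-values are Benjamini-Hochberg values over the 20581 genes, called at 0.05. Keap1 checked the labels. Its level was 1.33 and 1.04 in KD IRI, against 2.66 and 2.50 in WT IRI. Without injury it was 1.50 and 1.40 in KD Normal, against 2.75 and 2.66 in WT Normal. It was lower by 1.39 ± 0.12 (SE) with injury (adjusted p = 0.00546, or 0.0520 when only the 4 arrays compared were fitted) and by 1.25 ± 0.12 without (adjusted p = 0.00401). Of the 20 proximal tubule markers on the array, 19 were well above background on all 8 arrays, as were all 5 podocyte and all 6 collecting duct markers.

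The receptor genes fell by day 1 after injury in both genotypes. Lrp2 had 5.11 and 4.63 in KD IRI, against 7.25 and 7.20 in KD Normal. Both injured arrays lay below both uninjured ones. The difference was -2.36 ± 0.25, a 5.14-fold lower signal (adjusted p = 0.000234). In wild-type kidneys, Lrp2 had 5.52 and 4.77 in WT IRI, against 7.19 and 7.13 in WT Normal. The groups again did not overlap, and the difference was -2.01 ± 0.25, a 4.03-fold lower signal (adjusted p = 0.000938). The array's other 3 Lrp2 probes also fell, with all 4 between -1.87 and -2.36 in KD and between -1.23 and -2.01 in WT.

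Cubn had 3.53 and 3.02 in KD IRI, against 5.46 and 5.49 in KD Normal. It had 3.998 and 3.37 in WT IRI, against 5.38 and 5.31 in WT Normal. Each injured array was below each uninjured array of its genotype. Cubn was lower by 2.20 ± 0.23 in KD, or 4.60-fold (adjusted p = 0.000222), and by 1.66 ± 0.23 in WT, or 3.16-fold (adjusted p = 0.00139). Its partner Amn had 3.84 and 3.69 in KD IRI, against 5.29 and 5.13 in KD Normal. Amn had 4.23 and 3.75 in WT IRI, against 5.19 and 5.09 in WT Normal. Its groups did not overlap either, and the difference was -1.44 ± 0.16 in KD (2.72-fold lower, adjusted p = 0.000263) and -1.15 ± 0.16 in WT (2.22-fold lower, adjusted p = 0.00131). Whether the genes fell by different amounts was not tested.

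Folr1, the folate receptor gene, fell as well. It had 4.29 and 3.95 in KD IRI, against 6.14 and 5.90 in KD Normal. It had 4.75 and 4.32 in WT IRI, against 6.15 and 6.01 in WT Normal. All injured arrays were below all uninjured ones. The difference was -1.90 ± 0.17 in KD (3.73-fold lower, adjusted p = 0.000139) and -1.55 ± 0.17 in WT (2.92-fold lower, adjusted p = 0.000684). A second Folr1 probe fell by 2.32 in KD and by 1.70 in WT.

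Within slides, each of which held 1 array of every group, the fall of these 4 genes had the same direction on both. In KD it was -2.14 and -2.58 for Lrp2, -1.93 and -2.47 for Cubn, -1.45 and -1.44 for Amn, and -1.85 and -1.95 for Folr1. In WT it was -1.66 and -2.36 for Lrp2, -1.38 and -1.94 for Cubn, -0.97 and -1.34 for Amn, and -1.40 and -1.69 for Folr1. The first KD IRI array was higher than the second in all 4 genes, and so was the first WT IRI array. In whole kidney, fewer proximal tubule cells and less RNA per cell cannot be told apart.

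**Figure D1:**
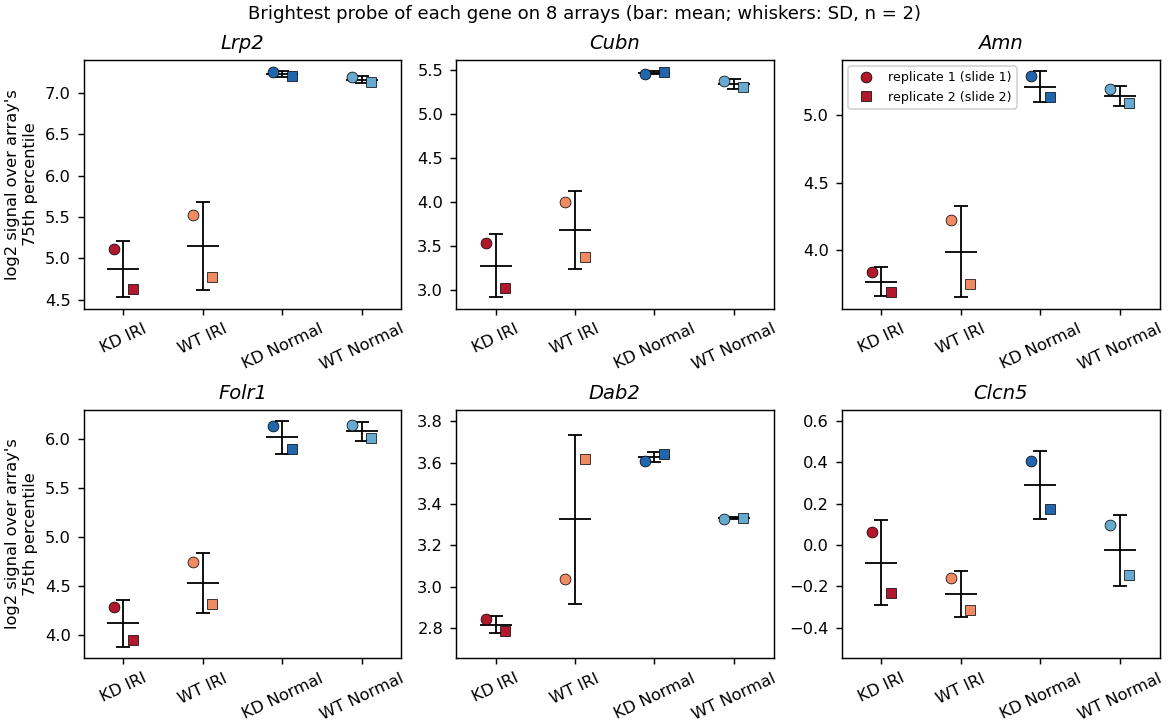
Level of each gene on each array (vertical axis, log2 relative to the 75th percentile), for KD IRI, WT IRI, KD Normal and WT Normal from left to right. Points are arrays, bars are means and whiskers the SD (n = 2). Lrp2, Cubn, Amn and Folr1 lie lower on every injured array than on every uninjured array, whereas Dab2 and Clcn5 do not separate that way.

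Dab2, the adaptor, passed the test in KD and not in WT on its brightest probe, and the difference between the genotypes is given with the interaction. It had 2.85 and 2.79 in KD IRI, against 3.61 and 3.64 in KD Normal. The groups were apart, and Dab2 was 1.75-fold lower (-0.81 ± 0.17, adjusted p = 0.00519). It had 3.04 and 3.62 in WT IRI, against 3.33 and 3.33 in WT Normal. The WT IRI arrays lay on either side of the uninjured ones, and the difference was -0.0032 ± 0.17 (95% interval -0.40 to 0.39, adjusted p = 0.989). The WT value turned on single arrays: Dab2 was at 0.29 without the first WT IRI array (adjusted p = 0.0257) and at -0.29 without the second (adjusted p = 0.0290). Over all alternatives its adjusted p in WT ranged between 0.00770 and 0.999. The WT direction was also positive under quantile normalization (0.18).

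The second Dab2 probe, A_52_P17534, gave another picture in WT. It had -0.66 and -0.85 in KD IRI, against 0.69 and 0.69 in KD Normal. It had -0.32 and -0.012 in WT IRI, against 0.38 and 0.48 in WT Normal. Both groups of injured arrays were below their uninjured ones. With p-values adjusted over the 27409 probes fitted, this probe fell by 1.45 ± 0.12 in KD (adjusted p = 9.87e-05) and by 0.60 ± 0.12 in WT (adjusted p = 0.00770). Both probes thus fell in injured KD kidney, and they disagree on whether Dab2 changed in injured WT kidney. Which transcripts each probe detects was not tested.

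Clcn5, the endosomal exchanger, did not pass in either genotype. It had 0.061 and -0.23 in KD IRI, against 0.41 and 0.17 in KD Normal. It had -0.16 and -0.31 in WT IRI, against 0.095 and -0.15 in WT Normal. The injured arrays were lower without overlap within each genotype. The difference was -0.37 ± 0.15 in KD (95% interval -0.72 to -0.026, adjusted p = 0.0624) and -0.21 ± 0.15 in WT (95% interval -0.56 to 0.14, adjusted p = 0.279). With the slide as a block the KD difference passed (adjusted p = 0.00731), and it was -0.52 without the first KD IRI array (adjusted p = 0.0451). Its adjusted p in KD ranged between 0.00731 and 0.307 over the alternatives.

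In KD IRI against KD Normal, 5 of the 6 were lower and 1 missed the threshold; the median was -1.67. Of all 20581 genes 31.8% were called lower and 27.5% higher, 59.3% in either direction, and the median was -0.080. In WT IRI against WT Normal, 4 of the 6 genes were lower, none was higher and 2 missed the threshold; the median difference was -1.35. Among all genes 25.2% were called lower and 20.6% higher, 45.9% in either direction, and the median was -0.080. The arrays did not overlap between injured and uninjured kidneys for all 6 genes in KD, against 81.9% of all genes, and for 5 of the 6 in WT, against 76.7%.

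**Figure D2:**
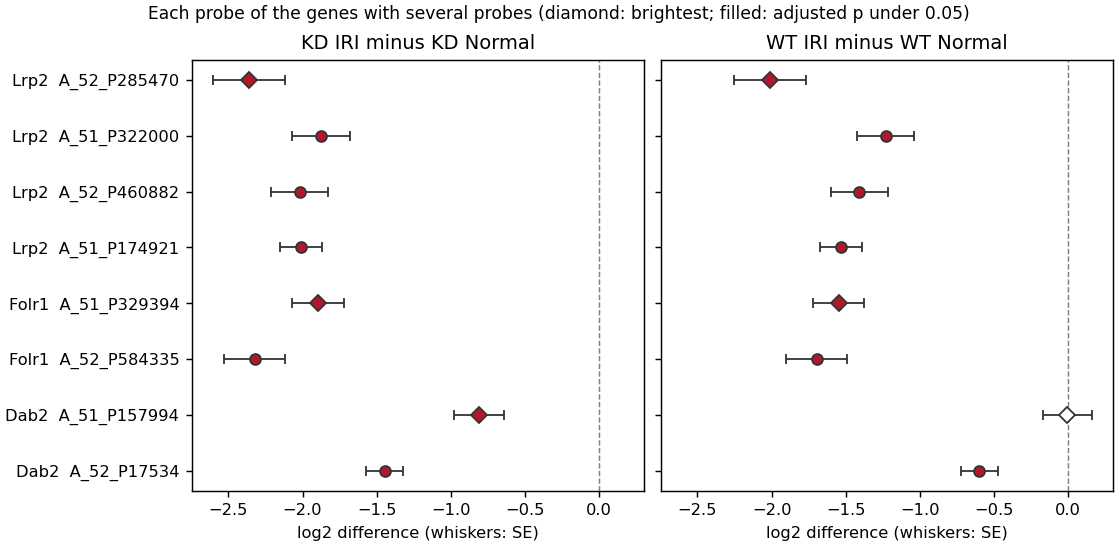
Difference between injured and uninjured kidneys (log2, horizontal axis; whiskers are SE) for each probe of Lrp2, Folr1 and Dab2, in KD at left and WT at right. Filled symbols passed at an adjusted p of 0.05 and diamonds mark the brightest probe. All symbols are filled and negative but that of the brightest Dab2 probe in WT, which sits at -0.0032.

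The comparison of genotypes asks whether lower Keap1 was accompanied by another level of these genes. In KD Normal against WT Normal, none of the 6 genes passed on its brightest probe and none had an unadjusted p under 0.05 there. Among all genes 15.2% were called, 6.40% higher and 8.78% lower. Differences were 0.070 ± 0.25 for Lrp2 (95% interval -0.52 to 0.66), 0.13 ± 0.23 for Cubn (-0.41 to 0.67) and 0.069 ± 0.16 for Amn (-0.30 to 0.44). Folr1 stood at -0.061 ± 0.17 (-0.48 to 0.35). For Dab2 it was 0.30 ± 0.17 (-0.10 to 0.69) and for Clcn5 0.31 ± 0.15 (-0.033 to 0.66). On these probes the intervals leave room for changes of up to 0.69 on the log2 scale upward and 0.52 downward. The other Lrp2 probes stood higher, at 0.26, 0.43 (95% interval -0.026 to 0.90) and 0.53 (0.081 to 0.99). The last had an unadjusted limma p of 0.0270 and did not pass over all probes (adjusted p = 0.102). Both KD Normal arrays were above both WT Normal arrays for Lrp2, Cubn, Dab2 and Clcn5, whereas the groups overlapped for Amn and Folr1. These 4 of 6 genes without overlap compare with 64.4% of all genes, a share near the background.

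Clcn5 and Dab2 in the uninjured kidneys depended on the fit. The Clcn5 difference passed with the slide as a block (0.31, adjusted p = 0.0434) and ranged in adjusted p between 0.0434 and 0.773 over the alternatives. Dab2 passed when only the 4 arrays compared were fitted (0.30, adjusted p = 0.0456). It also passed when the first (adjusted p = 0.0263) or second WT IRI array (adjusted p = 0.0264) was left out, which changes the estimate of the spread and not the difference. Its adjusted p ranged between 0.0263 and 0.797.

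In KD IRI against WT IRI, none of the 6 genes passed and 1, Dab2, had an unadjusted p under 0.05. Among all genes 7.11% were called, 3.69% higher and 3.42% lower. The values were lower in KD IRI for 5 of the 6 genes (median -0.34, against -0.042 over all genes). All 6 were read on the same arrays, so their directions are not separate observations. Lrp2 differed by -0.28 ± 0.25 (95% interval -0.87 to 0.31), Cubn by -0.41 ± 0.23 (-0.95 to 0.13) and Amn by -0.22 ± 0.16 (-0.59 to 0.15), each with overlapping arrays. Without the first WT IRI array these differences were 0.095 for Lrp2 and 0.016 for Amn. Folr1 differed by -0.41 ± 0.17 (-0.83 to 0.0034, adjusted p = 0.189) with no overlap, and it passed with the slide as a block (adjusted p = 0.0405). Its adjusted p ranged between 0.0405 and 0.618 over the alternatives. On the second Folr1 probe the difference was -0.46 and the arrays overlapped (adjusted p = 0.208 over all probes). Clcn5 was at 0.15 ± 0.15 (-0.20 to 0.50). On the brightest probes the arrays did not overlap for 2 of the 6 genes, Folr1 and Dab2, against 57.0% of all genes.

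Dab2 differed by -0.51 ± 0.17 between the injured genotypes (95% interval -0.91 to -0.11, adjusted p = 0.111). Within slides the difference was -0.19 and -0.83. Without the first WT IRI array it was -0.80 (adjusted p = 0.00844), and its adjusted p ranged between 0.00844 and 0.373. The second Dab2 probe was lower in KD IRI than in WT IRI by 0.59 ± 0.12 (adjusted p = 0.0404 over all probes). On it the KD IRI arrays were below both WT IRI arrays.

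The interaction tests whether injury moved a gene by a different amount in KD than in WT kidney. None of the 6 genes passed, 1 (Dab2) had an unadjusted p under 0.05, and among all genes 6.60% were called, 3.79% higher and 2.81% lower. The estimates were all negative: -0.35 ± 0.35 for Lrp2 (95% interval -1.18 to 0.48), -0.54 ± 0.32 for Cubn (-1.30 to 0.22), -0.29 ± 0.22 for Amn (-0.81 to 0.23), -0.35 ± 0.25 for Folr1 (-0.94 to 0.24) and -0.16 ± 0.21 for Clcn5 (-0.66 to 0.33). A larger receptor fall in KD was therefore not shown, and its size on these probes is bounded only by these intervals. The other Lrp2 probes stood at -0.48, -0.64 (-1.29 to 0.0099) and -0.61, and the second Folr1 probe at -0.63 (-1.31 to 0.059). None of these passed (adjusted p between 0.194 and 0.228 over all probes). On its brightest probe the estimate for Lrp2 was 0.025 without the first WT IRI array. Dab2 stood at -0.81 ± 0.24 (-1.37 to -0.24, adjusted p = 0.0922), and its second probe at -0.85 ± 0.18 (adjusted p = 0.0407 over all probes). The Dab2 estimate was -1.09 without the first WT IRI array (adjusted p = 0.00641) and -0.52 without the second (adjusted p = 0.0432). Its adjusted p ranged between 0.00641 and 0.276. The genotype and injury comparisons share arrays, so these values are not independent of those above. Nor are the 6 estimates independent of each other. Their median was -0.35, against -0.0010 over all genes.

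**Figure D3:**
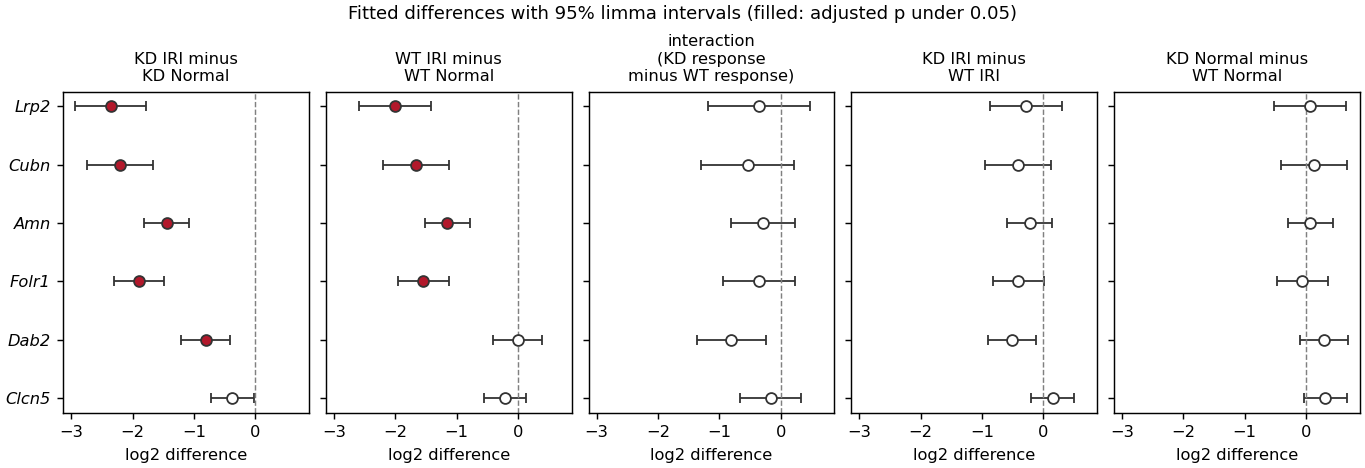
Fitted log2 differences (horizontal axis) of the 6 genes with 95% intervals, in panels for KD IRI minus KD Normal, WT IRI minus WT Normal, the interaction, KD IRI minus WT IRI and KD Normal minus WT Normal. Filled points passed at an adjusted p of 0.05: 5 in the KD injury panel, 4 in the WT injury panel and none in the others.

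Genes whose levels ran most like each of the 6 were ranked by Pearson r over the 8 arrays among 14099 named genes. The arrays fall into injured and uninjured kidneys, so a high r mostly records the same step between them. Nearest to Lrp2 was Fmo1, a flavin-containing monooxygenase (r = 0.999), followed by Cideb and Neu2. Cubn was nearest to Slc7a13, a cystine transporter of the late proximal tubule (r = 0.9995), Slc46a1, the proton-coupled folate transporter (r = 0.999), and Cyp2j5, a cytochrome P450 (r = 0.999). Between injured and uninjured kidneys the level of Slc46a1 differed by -1.63 in KD and by -1.25 in WT. Amn was nearest to Calml4, Ttc36 and Slc34a1, the phosphate transporter of the proximal tubule (r = 0.998). Folr1 was nearest to Pipox, an oxidase of pipecolic acid, and to Ndufv3 and Uqcrh of the respiratory chain (r = 0.999 for each). Between 1535 and 1686 genes had an r above 0.95 with Lrp2, Cubn, Amn or Folr1, so these neighbours are a few among many. For Dab2, on its brightest probe, only 17 did, led by Tprgl (r = 0.974), and for Clcn5 only 10, led by Rtraf (r = 0.982). The second Dab2 probe, which differed in WT, was not ranked.

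Genes that work with the receptors were taken as fixed lists, and their members did not all fall. Of 25 measured adaptor and coat genes, 7 rose, 9 fell and the other 9 stayed below the threshold in injured KD kidney (median -0.090). In injured WT kidney 5 rose, 5 fell and 15 stayed below it (median 0.013). Over all genes 27.5% rose and 31.8% fell in KD, and 20.6% and 25.2% in WT, so these counts lie near the background. With quantile normalization there were more rises than falls, 12 and 6 in KD and 8 and 4 in WT, and with the normexp background correction 6 and 4 in KD and 2 and 5 in WT. Lrpap1, the chaperone that escorts megalin through the secretory pathway, fell by 2.09 ± 0.16 in KD (adjusted p = 7.28e-05) and by 1.65 ± 0.16 in WT (adjusted p = 0.000430), with both of its probes passing. Inpp5b, a phosphoinositide phosphatase, fell by 1.85 in KD, and Epn1, which encodes the clathrin adaptor epsin, fell by 0.75 in WT. Ap2b1, a subunit of the clathrin adaptor AP-2, rose by 1.17 ± 0.16 in KD and by 1.56 ± 0.16 in WT. Gipc1, which binds the megalin tail, rose by 1.06 ± 0.12 in KD and by 0.67 ± 0.12 in WT.

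Acidification of endosomes, on which the release of cargo from megalin depends, is the work of the vacuolar proton pump. Of 19 measured genes of this list, 14 fell, 1 rose and 4 did not pass in injured KD kidney (median -0.60). In injured WT kidney 11 fell, 1 rose and 7 did not pass (median -0.30). Of all genes 31.8% fell and 27.5% rose in KD, and 25.2% and 20.6% in WT. Atp6v1a, the catalytic subunit, fell by 1.29 in KD (adjusted p = 6.94e-05) and by 0.93 in WT (adjusted p = 0.000551). In KD, Atp6v0a4, a subunit of kidney pumps, fell by 1.67 and Atp6v0a1 rose by 0.41. In WT, Atp6v1b1, a subunit that intercalated cells use, fell by 1.23 and Atp6v1c1 rose by 0.34. Of 17 lysosomal genes, 8 fell and 4 rose in KD, and 7 fell and 6 rose in WT. Quantile normalization turned the WT balance to 4 falls and 6 rises, whereas normexp gave 6 falls and 2 rises. The mannosidase gene Man2b1 fell by 1.38 in KD and by 1.23 in WT, and Ctsd, which encodes cathepsin D, rose by 0.71 in KD and by 0.88 in WT.

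Of 18 measured genes of cargo proteins and of vitamin handling, 13 fell, none rose and 5 did not pass in injured KD kidney (median -0.63). In injured WT kidney 10 fell, 1 rose and 7 did not pass (median -0.48). Alb, the albumin gene, fell by 2.29 in KD (adjusted p = 0.000126). Ttr, which encodes the thyroxine carrier transthyretin, was not well above background in KD IRI and was at least 18.8-fold lower there than in KD Normal (adjusted p = 0.000132). Folr2, a second folate receptor gene, fell by 1.48 ± 0.19 in WT (adjusted p = 0.00100), while Rbp4, which encodes the plasma carrier of retinol, was higher by 1.20 ± 0.37 (adjusted p = 0.0336). Among 9 other LDL receptor family genes, 3 rose, 2 fell and 4 did not pass in KD, and 2 rose, 2 fell and 5 did not pass in WT. Over all genes 27.5% rose and 31.8% fell in KD, and 20.6% and 25.2% in WT. Lrp1, the broadly expressed relative of megalin, rose by 1.26 ± 0.13 in KD (adjusted p = 0.000230) and by 1.00 ± 0.13 in WT (adjusted p = 0.00116). Lrp4 fell by 1.44 in KD and by 1.21 in WT. Lrp8 was not well above background in WT Normal and was at least 2.75-fold higher in WT IRI (adjusted p = 0.00524).

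Without injury 15.2% of all genes were called between genotypes, 6.40% higher and 8.78% lower. In KD Normal against WT Normal, 2 of 25 adaptor and coat genes rose, and of the 19 acidification genes 3 rose and 1 fell. The rises included Ap2b1 (0.68) and Inpp5b (0.44), and Atp6v1b1 fell by 0.94. These counts depended on the processing. The adaptor and coat count of 2 was 1 with quantile normalization, with normexp and in the deposited table. Acidification rises numbered 2 with quantile normalization, 0 with normexp and 1 in the deposited table, with 1 fall in each. In the same comparison 3 of 6 collecting duct markers fell, among them Slc4a1, the anion exchanger of intercalated cells, by 1.44 and the sodium channel gene Scnn1b by 0.83. Of 6 loop and distal tubule markers 3 fell, among them Slc12a3, the thiazide-sensitive transporter, by 0.80. The part of these markers in the acidification result was not tested. In the lysosomal and LDL receptor lists no gene passed by limma. The largest changes not past were Ctsz at -0.31 (adjusted p = 0.0600) and Lrp8 at 0.83 (adjusted p = 0.228). Lrp8 was not well above background in WT Normal and was so on 1 KD Normal array, so its 0.83 is a measured value near the floor. Vdr, the vitamin D receptor gene, was the 1 gene of the cargo and vitamin list that passed, at -0.69 ± 0.14 (adjusted p = 0.0251). That count of 1 was 4 with normexp (1 higher and 3 lower), 2 with quantile normalization and between 0 and 4 over all alternatives. In KD IRI against WT IRI, 3.69% of all genes were called higher and 3.42% lower. In that comparison 4 of 18 cargo and vitamin genes fell, among them Alb by 1.08 ± 0.21 (adjusted p = 0.0300). Of the 20 proximal tubule markers 5 fell and none rose there (median -0.45, or -0.40 with Slc9a3 at its bound). Of 6 collecting duct markers 2 fell, and the part of these markers was not tested. The proximal tubule count of 5 was 6 with quantile normalization and 2 with normexp or in the deposited table. The collecting duct count of 2 was 1 with normexp or in the deposited table. Of 19 acidification genes 2 fell, Atp6v0a4 by 1.07 (adjusted p = 0.0105) and Atp6v1b2 by 0.47, and of 25 adaptor and coat genes Ehd1 rose by 0.44 and Inpp5b fell by 0.70. With normexp and in the deposited table no adaptor or coat gene was higher and 1 was lower, and over all alternatives between 0 and 2 passed. The acidification count of 2 was 1 with normexp or in the deposited table.

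**Figure D4:**
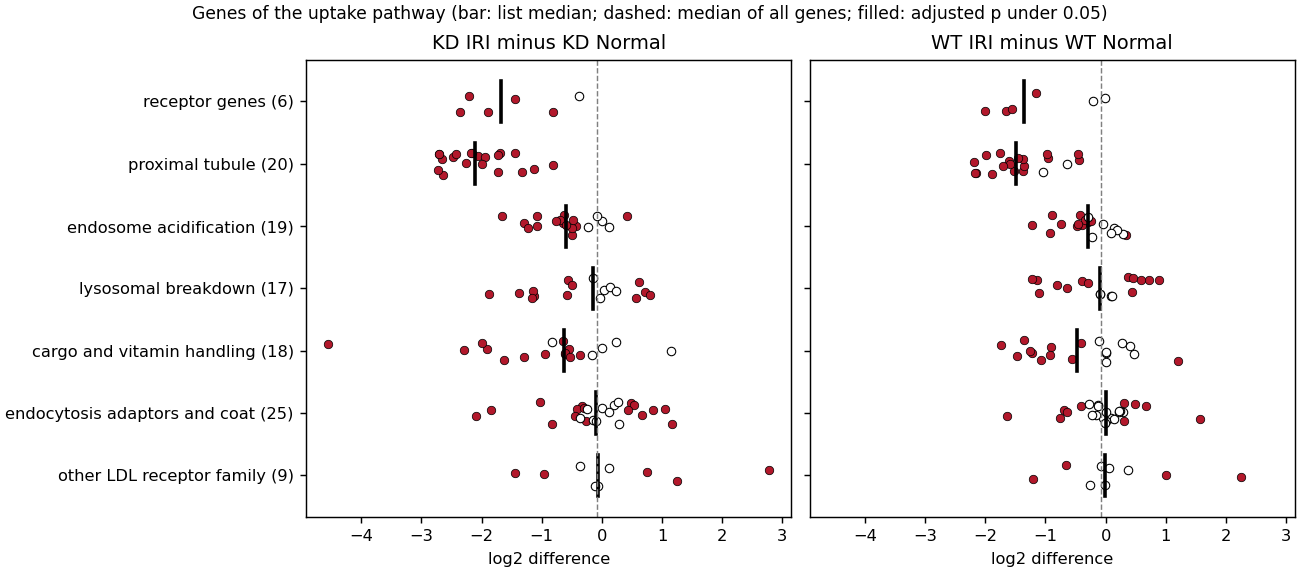
Log2 difference between injured and uninjured kidneys (horizontal axis) of single genes, in KD at left and WT at right, for the 6 receptor-system genes and 6 lists with the number measured in parentheses. Bars are list medians, the dashed line the median of all genes, and filled points passed at an adjusted p of 0.05. The proximal tubule list and the 6 genes lie to the left, with medians of -2.10 and -1.67 in KD and -1.49 and -1.35 in WT.

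Markers of the proximal tubule, the cell type that holds the receptors, moved with them, and markers of other tubule segments fell as well. Of 20 measured markers all fell in injured KD kidney, with Slc9a3 not well above background in KD IRI, and 18 fell and none rose in injured WT kidney. The median was -2.10 in KD, or -2.02 with Slc9a3 at its bound, and -1.49 in WT. Their mean level in KD IRI was 2.41 and 2.04, against 4.32 and 4.21 in KD Normal. In WT IRI it was 3.03 and 2.51, against 4.21 and 4.21 in WT Normal. The first array of each injured group was the higher, as for the receptors. Aqp1, a water channel also present in the thin descending limb, fell by 2.70 in KD and by 2.18 in WT. Macrophage markers rose for 7 of 8 measured genes in both genotypes. The other, Csf1r, fell in both, by 0.58 ± 0.16 in KD (adjusted p = 0.0163). The mean level of the 8 genes was 0.27 and 0.62 in KD IRI, against -1.19 and -0.86 in KD Normal. It was 0.24 and 0.13 in WT IRI, against -1.004 and -1.04 in WT Normal. All 7 tubule injury markers rose in both genotypes. All 6 loop and distal tubule markers fell in both, with a median of -3.09 in KD and -3.27 in WT. Of 6 collecting duct markers 5 fell and none rose in each genotype (median -1.34 in KD and -0.83 in WT). Beside these marker counts, 31.8% of all genes fell and 27.5% rose in KD, and 25.2% fell and 20.6% rose in WT. The part of these cell type levels in the receptor results was not tested.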

How the data were processed

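RNA of mouse kidneys was measured on 1-colour Agilent arrays, from 300 ng of Cy3-labelled total RNA per the labels. The deposited intensity values are background-subtracted and detrended by Feature Extraction 10.7.3.1, per the file headers. The deposited log2 table, whose scaling is not given in the sources used here, had column medians between -0.14 and 0.16 and correlated at r of 0.998 or more with log2 intensities scaled and centred per probe. Per the file headers each of the 2 slides held 1 array of every group and the replicate number equals the slide; deviations from group means correlated between same-numbered arrays with r of 0.022 to 0.26.

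The values analysed were log2 intensity minus each array's log2 75th percentile. Control spots and spots flagged as outliers were dropped and repeated spots averaged. Probes had to exceed background clearly on all arrays of some group: 27625 of 41174 did, and 216 of these lacked a value on some array because of flags. Symbols came from RefSeq accessions (26690 probes, 18217 symbols, GRCm38.p6), and the brightest probe of a gene was used. Group means were fitted with limma 3.58.1 (R 4.3.3, eBayes with an intensity trend, 4 residual degrees of freedom, two-sided), with Benjamini-Hochberg adjustment over 20581 genes and a threshold of 0.05. Where a gene was too dim throughout a group, an at-least fold sets it there, per array, to the higher of its own signal and the lowest signal well above background. The fit was tested on simulated arrays with independent noise and no slide effect, so that test cannot show how it behaves where arrays share effects. Precision is limited by the count of arrays.

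The members and lists were chosen with earlier results of these data known. Text names the 6 genes, Keap1, the 3 nearest genes by r and, per list and comparison, up to 2 of the largest rises and falls and the largest change not past. Of the listed genes, Cblif, Cyp27b1 and Lrp1b were too dim, and Rab7, Lrp5, Lrp6, Sorl1, Miox and Cd68 had no probe under that symbol; some other listed genes, and 1 other motif that was searched, are not reported here. Alternatives were quantile normalization, normexp with an offset of 50 (on the median spot signal), the deposited table, 2 other filters on dim probes, a slide block, no trend, weights for arrays, a fit of only the arrays compared, the mean of probes, single probes, a 2-fold minimum and each array left out.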

Additional observations from a re-analysis of the deposited data

Results flagged for a closer look

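Injury moved some genes by a different amount in KD than in WT kidney, past the limma threshold for the interaction (KD response minus WT response), as did 6.60% of all genes. The second Dab2 probe, A_52_P17534, stood at -0.85 (adjusted p = 0.0407). Among adaptors and acidification genes, Inpp5b stood at -1.15 (adjusted p = 0.0192), Atp6v0a4 at -1.38 (adjusted p = 0.0182) and Atp6v1b2 at -0.60 (adjusted p = 0.0401). In the lysosomal list, Ctsh, a cathepsin gene, stood at -0.49 (adjusted p = 0.04997). Ttr stood at -2.80 (adjusted p = 0.0424), a measured value that is not a bound, since Ttr was not well above background in KD IRI. The proximal tubule transporters Slc5a12 and Slc27a2 stood at -1.78 (adjusted p = 0.0333) and -1.03 (adjusted p = 0.0428). Among markers of other kinds, the sodium channel gene Scnn1g stood at -0.50 (adjusted p = 0.0434) and the injury marker Vcam1 at 0.95 (adjusted p = 0.0396). Many of these calls depended on the processing. In the deposited table no gene of the lysosomal, cargo and vitamin, proximal tubule, collecting duct or tubule injury lists passed for the interaction, and the acidification list had 1 call in place of 3. Quantile normalization and normexp also left 1 acidification call each and no lysosomal call.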

How the results depend on the processing

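Of 589 values of the 6 genes under alternatives, 559 kept their direction and side of the threshold. The fall of Lrp2, Cubn, Amn and Folr1 after injury kept both under every alternative run, between -2.60 and -1.10 in KD and between -2.39 and -0.81 in WT. The cause of the changes below was not tested unless stated. Dab2 in WT injury was 0.18 under quantile normalization, 0.011 in the deposited table, 0.00071 without the second WT Normal array and -0.29 to 0.29 with 1 array left out (the highest without the first WT IRI array), and the 2-fold minimum removed the Dab2 call in KD. Without injury the genotype difference of Lrp2 was -0.069 and of Amn -0.030 with normexp, and that of Amn was -0.010 without the first KD Normal array. That of Folr1 was 0.051 with the mean of probes, 0.16 on the second probe, 0.0097 without the first WT Normal array, 0.058 without the second KD Normal array and -0.18 without the first. Between injured genotypes, leaving out the first or second WT IRI array gave 0.095 or -0.66 for Lrp2 and 0.016 or -0.46 for Amn. The interaction of Folr1 was 0.020 and that of Keap1 0.066 with normexp; with 1 array left out, that of Lrp2 ran between -0.73 and 0.025 and that of Keap1 between -0.29 and 0.0089. Normexp moved the median of all genes to 0.20 in WT injury and -0.34 in KD injury, to 0.15 between uninjured and -0.22 between injured genotypes, and to -0.31 for the interaction.

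The number of the 6 genes past the threshold was 1 in place of 0 for KD Normal against WT Normal with only the arrays compared or the replicate block, and for KD IRI against WT IRI with the block. Leaving out 1 array gave 4 to 5 in WT injury, 5 to 6 in KD injury, and 0 to 1 in each of the other 3 comparisons. The block changed no other call of the 6 genes than those of Clcn5 (KD injury, and uninjured genotypes) and Folr1 (injured genotypes).

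Over all genes, the count of 9437 in WT injury was 5272 with normexp, 15129 without the filter (more genes tested), 3452 with a 2-fold minimum and 5898 to 9700 with 1 array left out. The count of 12203 in KD injury was 6976, 5486 with the minimum, and 9248 to 12559. That of 3126 in KD Normal against WT Normal was 1314 with normexp, 2001 without the filter, 894 with the minimum and 119 to 3858. That of 1463 in KD IRI against WT IRI was 930 without the trend, 66 with only the arrays compared, 442 with the minimum and 24 to 1537. That of 1359 for the interaction was 612 in the deposited table, 550 without the filter, 739 without the trend, 797 with the minimum and 6 to 1694.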
